A study of Mus musculus with 7 samples.

Results

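The 10 genes described here are 4 Notch receptors (Notch1, Notch2, Notch3 and Notch4), 4 of their ligands (Jag1, Jag2, Dll1 and Dll4) and 2 target genes (Hey1 and Heyl). They were chosen by symbol, and all 10 were found among the 24964 gene symbols of the deposited table. RNA was sequenced from the whole uterus of 12-week-old mice at the diestrus stage of the estrous cycle. The 3 control libraries (numbered 1, 2 and 4) had the genotype Pgrcre/+, a single Cre allele at the progesterone receptor locus. The other 4 libraries (numbered 1 to 4), called Foxl2-LSL here, were Pgrcre/+Foxl2LsL/+, which adds an allele named for the forkhead transcription factor FOXL2, so every animal carried the Cre allele. Cre made from the Pgr locus acts only in cells that express this locus or descend from them, and the labels do not say whether a library came from 1 animal. If libraries were not from separate animals, the p-values measure only the spread between these libraries.

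Notch receptors are membrane proteins that are activated by ligands on neighbouring cells. Binding leads to proteolytic release of the receptor's intracellular part, which enters the nucleus and, with the DNA-binding protein RBPJ and Mastermind-like coactivators, switches on genes of the HES and HEY families of transcriptional repressors. In vessels DLL4 and JAG1 act on NOTCH1 and NOTCH4 in endothelium and on NOTCH3 in the surrounding mural cells, and in the uterus Notch signalling is known for its part in epithelial and stromal cell behaviour and in decidualization.

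A set of 4 sequences is shown because they lie at the starts of genes whose transcripts changed: Jag1 and Dll4, which were higher in the Foxl2-LSL libraries, and Notch4 and Hey2, which were lower. Each runs from 250 bases before to 50 bases after the start site annotated by RefSeq on GRCm38.p6, written 5' to 3' in the direction of the gene. Capitals mark the bases of any match to 7 short motifs on either strand.
Jag1: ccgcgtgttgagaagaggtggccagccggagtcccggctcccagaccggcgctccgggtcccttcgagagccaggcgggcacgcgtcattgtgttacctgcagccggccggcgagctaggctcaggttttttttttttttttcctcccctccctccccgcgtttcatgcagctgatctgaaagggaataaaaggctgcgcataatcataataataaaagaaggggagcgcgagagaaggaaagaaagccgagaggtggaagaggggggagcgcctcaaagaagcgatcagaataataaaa
Dll4: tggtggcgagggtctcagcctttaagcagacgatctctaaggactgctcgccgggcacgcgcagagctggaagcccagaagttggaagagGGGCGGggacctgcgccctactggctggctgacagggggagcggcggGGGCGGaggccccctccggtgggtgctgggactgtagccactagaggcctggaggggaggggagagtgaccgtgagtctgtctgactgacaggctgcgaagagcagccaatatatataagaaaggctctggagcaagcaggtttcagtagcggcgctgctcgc
Notch4: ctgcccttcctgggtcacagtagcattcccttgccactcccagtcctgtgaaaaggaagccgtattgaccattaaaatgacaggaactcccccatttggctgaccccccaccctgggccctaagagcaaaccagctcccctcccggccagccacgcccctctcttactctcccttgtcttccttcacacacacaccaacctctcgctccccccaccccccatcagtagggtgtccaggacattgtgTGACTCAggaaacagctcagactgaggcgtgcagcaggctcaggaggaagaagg
Hey2: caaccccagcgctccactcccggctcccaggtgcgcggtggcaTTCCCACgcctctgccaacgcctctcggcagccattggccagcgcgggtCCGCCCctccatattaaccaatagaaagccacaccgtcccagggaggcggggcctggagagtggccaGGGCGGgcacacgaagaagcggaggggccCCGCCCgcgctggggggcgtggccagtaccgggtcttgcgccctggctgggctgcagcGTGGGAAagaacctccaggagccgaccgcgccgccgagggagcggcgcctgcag
They lie at chr2:137116471-137116770 (Jag1, minus strand), chr2:119325534-119325833 (Dll4, plus strand), chr17:34564045-34564344 (Notch4, plus strand) and chr10:30842734-30843033 (Hey2, minus strand). The motifs searched were GTGGGAA for RBPJ, TGTTTAC for forkhead factors, CACGTG for HEY and HES proteins, TGANTCA for AP-1, the palindromic estrogen response element, TATAAA for the TATA box and GGGCGG for the GC box.

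Of the 10 genes, 8 had an entry in the promoter table, with 9 start sites in all. None of these 9 windows held the RBPJ, forkhead, E-box, estrogen response element or TATA letters, which occur in 6.38%, 3.65%, 7.15%, 0.0700% and 13.6% of all 32851 windows in the table. The GC box was found in 5 of the 9 (Notch1, Notch2, Notch3, Jag2 and Dll4), against 35.7% of all windows, and some of its matches overlap each other. The capitals in Notch4 are an AP-1 match that begins 4 bases before the start site. One of the Dll1 windows holds the same motif, as do 7.81% of all windows. In Hey2 the RBPJ letters occur at 207 bases before the start site on the opposite strand and at 4 bases before it on the gene's strand. Its other capitals are GC boxes. The RBPJ letters also occur in windows of other pathway genes, among them Lfng, whose transcript did not pass the test used below. The Jag2 window had 86.0% G and C and 63 CG dinucleotides, the Jag1 window 55.7% and 22, and the median of all windows was 52.7% and 7. These matches describe letters only and show no binding.

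Values are FPKM, fragments scaled for gene length and for the fragments of the library, so levels of different genes can be set side by side. The libraries held about 47800000 to 67300000 fragments by the authors' scaling, and 118 to 8602 fragments lay on each of the 10 genes in each library, which gives a counting error (coefficient of variation) of 9.21% at worst. Foxl2 itself averaged 14.4 FPKM in controls (SD 4.32, n = 3) and 14.7 FPKM (SD 1.86, n = 4) in the libraries labelled Foxl2-LSL (log2 fold change 0.06; limma adjusted p 0.818). No rise of Foxl2 was seen in them, and each direction below rests on the labels alone. Every marker on the lists for epithelium, stroma, smooth muscle, endothelium and mural cells was detected, while 4 of the 6 gland markers lay below the filter on low values used here. Control 2 held 291 FPKM of the oviduct gene Ovgp1 against 1.65 to 19.7 FPKM in the other 6 libraries, and the fat cell gene Adipoq ranged from 0 to 27.3 FPKM across libraries. The 5 fat cell markers summed to 0.136 to 69.4 FPKM in controls and 2.03 to 190.5 FPKM in Foxl2-LSL libraries. None of the 4 that were tested passed the test used below, and the part of attached fat in the other values was not tested.

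The family split. Jag1 and Dll4 rose, Notch4, Jag2 and Heyl fell, and Notch1, Notch2, Notch3, Dll1 and Hey1 did not pass the test. Groups were compared with limma on log2(FPKM + 1) over all 13334 genes with a mean of at least 1 FPKM, a filter that all 10 genes passed, and a gene was called at a Benjamini-Hochberg adjusted p under 0.05 (called the adjusted p below). In this comparison 40.6% of all tested genes were called, 16.7% as higher and 23.9% as lower, so 5 called genes of 10 (2 higher, 3 lower) is close to the background. The groups did not overlap in 4 of the 10 (1 higher, 3 lower), against 47.6% of all tested genes (19.7% higher, 27.9% lower). The median log2 fold change of the 10 was -0.06 against -0.05 for all tested genes, and the median size regardless of sign was 0.51 against 0.27.

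**Figure D1:**
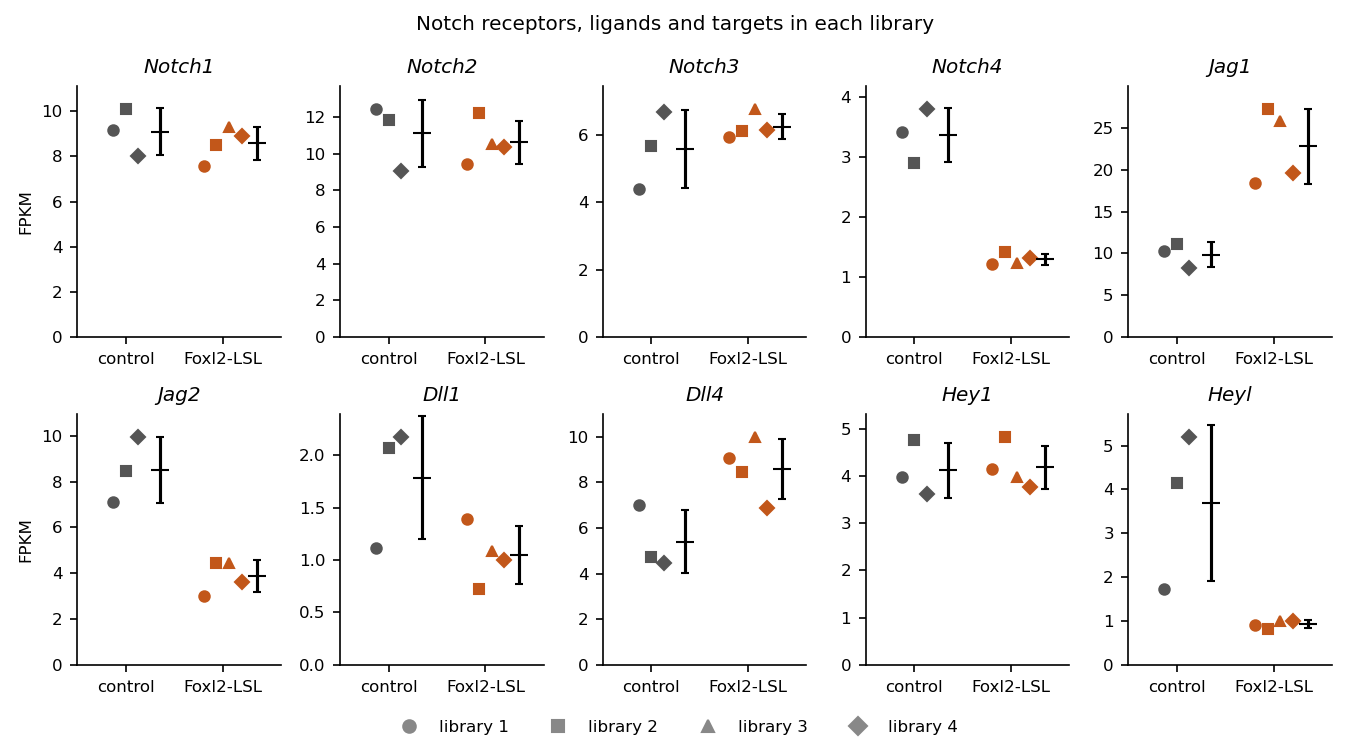
FPKM of the 10 genes in each library (vertical axes, each starting at 0), controls in grey and Foxl2-LSL in orange; marker shapes give the library number, and the black bar and whiskers give the mean and 1 SD (n = 3 and n = 4). Notch4, Jag2 and Heyl lie lower and Jag1 higher in all 4 Foxl2-LSL libraries than in any control, while Dll4 overlaps in 1 control.

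Among the receptors, Notch4 alone passed the test. NOTCH4 is a receptor made mainly by endothelial cells. Its gene lies on chromosome 17 from 34564268 to 34588503, plus strand (GENCODE M21 on GRCm38, as for all genes below). Notch4 read 3.41, 2.902 and 3.80 FPKM in controls 1, 2 and 4, and 1.22, 1.41, 1.24 and 1.31 FPKM in Foxl2-LSL 1, 2, 3 and 4. Every Foxl2-LSL library was below every control, and the 4 values lay close together. Notch4 fell 2.60-fold, from a control mean of 3.37 FPKM (SD 0.449, n = 3) to 1.29 FPKM (SD 0.0862, n = 4). In limma this was a log2 difference of -0.92 (SE 0.10; adjusted p 0.000692). An exact permutation test, two-sided by doubling the smaller tail, gave p 0.0571, the smallest that this test allows for 3 libraries against 4.

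Notch1 (chromosome 2, 26457903 to 26516663, minus strand) and Notch2 (chromosome 3, 98013527 to 98150361, plus strand), the widely expressed receptors, were the most abundant of the 4 receptors in both groups. Notch1 was at 9.16, 10.1 and 8.03 FPKM in controls and 7.58, 8.51, 9.31 and 8.90 FPKM in Foxl2-LSL libraries. Notch2 was at 12.4, 11.8 and 9.04 FPKM in controls and 9.42, 12.2, 10.5 and 10.4 FPKM in Foxl2-LSL libraries. The groups overlapped for both, with log2 fold changes of -0.07 (SE 0.10; adjusted p 0.576) and -0.05 (SE 0.12; adjusted p 0.765, both by limma). Notch3 (chromosome 17, 32120820 to 32166852, minus strand), the receptor of vascular smooth muscle and pericytes, was at 4.39, 5.66 and 6.69 FPKM in controls, a wide spread, and at 5.94, 6.10, 6.78 and 6.15 FPKM in Foxl2-LSL libraries. Its log2 fold change was 0.15 (SE 0.12; limma adjusted p 0.355), and the groups overlapped, with Foxl2-LSL 3 just above the highest control. Under quantile normalization and without control 1 the sign of the Notch2 value turned, so no direction is given for it.

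Shares of the receptor pool were compared next. Notch4 made up 11.6% ± 2.13 (SD, n = 3) of the summed FPKM of the 4 receptors in controls. In Foxl2-LSL libraries it made up 4.85% ± 0.279 (SD, n = 4), with no overlap. Notch2 held 38.0% ± 4.81 and 39.7% ± 2.44, Notch1 31.1% ± 2.002 and 32.1% ± 1.61, and Notch3 19.3% ± 4.71 and 23.4% ± 1.37, each with overlapping groups. The receptor sum was 27.6 to 30.5 FPKM in controls and 24.2 to 28.2 FPKM in Foxl2-LSL libraries. These shares were not tested, since each depends on the other 3 genes.

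**Figure D2:**
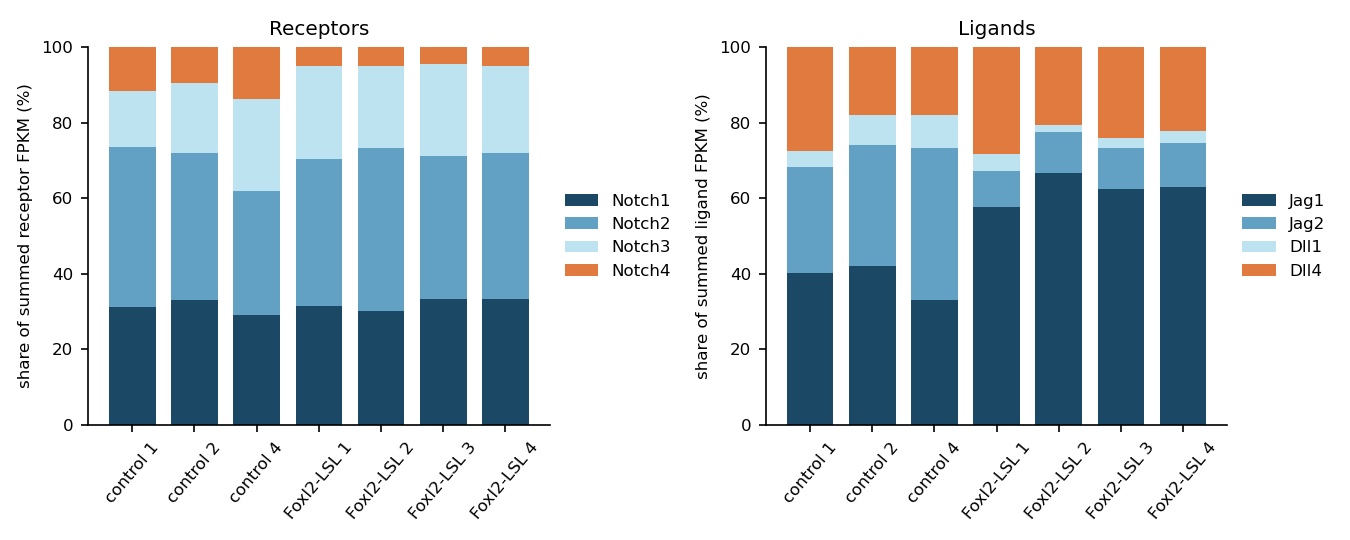
Share of each receptor (left) and each ligand (right) in the summed FPKM of its group, in percent on the vertical axis, 1 stacked bar per library. The Notch4 part is narrower in the 4 Foxl2-LSL bars, and Jag1 fills 57.8% to 66.7% of the ligand bars there against 33.1% to 42.1% in controls.

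The ligands changed in opposite directions. Jag1 (chromosome 2, 137081456 to 137116644, minus strand), which encodes the ligand Jagged1, was at 10.3, 11.1 and 8.21 FPKM in controls and at 18.4, 27.3, 25.9 and 19.6 FPKM in Foxl2-LSL libraries. All 4 Foxl2-LSL libraries were above all controls, with libraries 2 and 3 the highest. Jag1 rose 2.31-fold, from a control mean of 9.87 FPKM (SD 1.49, n = 3) to 22.8 FPKM (SD 4.44, n = 4). The log2 difference was 1.121 (SE 0.16; limma adjusted p 0.00187; exact permutation p 0.0571, two-sided).

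Jag2 (chromosome 12, 112907819 to 112929776, minus strand) encodes Jagged2, the other ligand of the Serrate type. It was at 7.11, 8.45 and 9.96 FPKM in controls and at 3.01, 4.42, 4.44 and 3.601 FPKM in Foxl2-LSL libraries. Every Foxl2-LSL library was below every control. Jag2 fell 2.20-fold, from a control mean of 8.51 FPKM (SD 1.43, n = 3) to 3.87 FPKM (SD 0.695, n = 4). The log2 difference was -0.97 (SE 0.15; limma adjusted p 0.00215; exact permutation p 0.0571, two-sided). Gland markers fell beside it, 2 of the 2 tested (log2 fold changes -1.500 for Foxa2 and -2.45 for Cxcl15), with summed levels of 26.7 to 43.5 FPKM in controls and 4.70 to 7.04 FPKM in Foxl2-LSL libraries. Their part in the Jag2 value was not tested.

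Set against each other, the Jagged ligands went from near parity to a large excess of Jag1. The ratio of Jag1 to Jag2 was 1.45, 1.31 and 0.824 in controls 1, 2 and 4 and 6.12, 6.16, 5.83 and 5.44 in Foxl2-LSL libraries 1 to 4. The ratio was chosen after the values of both genes were seen and was not tested. Among the Foxl2-LSL libraries, 2 and 3 were the highest for both genes.

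Dll4 (chromosome 2, 119325784 to 119335962, plus strand) encodes a ligand made by endothelium, above all in arteries and sprouting tips. It was at 6.997, 4.74 and 4.47 FPKM in controls and at 9.05, 8.46, 10.002 and 6.877 FPKM in Foxl2-LSL libraries. Control 1 lay just above Foxl2-LSL library 4, so the groups overlapped. Dll4 rose 1.59-fold, from a control mean of 5.40 FPKM (SD 1.39, n = 3) to 8.60 FPKM (SD 1.31, n = 4). The log2 difference was 0.59 (SE 0.16; limma adjusted p 0.0225; exact permutation p 0.114, two-sided). This call was lost when control 2, control 4, Foxl2-LSL 1 or Foxl2-LSL 3 was left out, with limma adjusted p from 0.0536 to 0.0809 and log2 fold changes of 0.49 to 0.57.

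A gene model on the other strand, Gm14207 (chromosome 2, 119321187 to 119326194, minus strand), shares 214 exon bases with Dll4, 5.56% of the exon bases of Dll4 in GENCODE M21. It was named after its values were seen. Gm14207 was at 1.74, 1.72 and 1.29 FPKM in controls and at 7.72, 8.04, 10.8 and 6.01 FPKM in Foxl2-LSL libraries, with no overlap (log2 fold change 1.80, SE 0.17; limma adjusted p 0.000431). The use of strand in counting is not given in the sources used here, so fragments in the shared bases cannot be assigned to either gene. In each library 83 to 640 fragments lay on Gm14207 and 1012 to 2089 on Dll4. The part of the shared bases in the rise of either gene was not tested.

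Dll1 (chromosome 17, 15367354 to 15376872, minus strand), the other Delta-like ligand, was the rarest of the 4. It was at 1.11, 2.07 and 2.18 FPKM in controls and at 1.39, 0.721, 1.09 and 1.005 FPKM in Foxl2-LSL libraries. Control 1 lay among the Foxl2-LSL libraries, and the log2 fold change of -0.43 (SE 0.18; limma adjusted p 0.0918) did not pass. It passed without control 1 (log2 fold change -0.62; adjusted p 0.0198) and with array weights, which give each library its own weight (-0.50; adjusted p 0.0132, both by limma). In the annotation 867 of the exon bases of Dll1, 20.5% of them, are shared with A930024N18Rik on the other strand.

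Summed over the 4 ligands, FPKM was 24.8 to 26.4 in controls and 31.1 to 41.4 in Foxl2-LSL libraries. Jag1 held 38.5% ± 4.80 (SD, n = 3) of that sum in controls. In Foxl2-LSL libraries it held 62.5% ± 3.66 (SD, n = 4). Jag2 held 33.4% ± 6.24 and 10.6% ± 0.893. Dll4 held 21.1% ± 5.44 and 23.8% ± 3.35, with overlapping groups. Dll1 held 4.36% to 8.78% in controls and 1.76% to 4.37% in Foxl2-LSL libraries, also with overlap.

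The HEY repressors gave no common direction. Heyl (chromosome 4, 123233556 to 123249875, plus strand), a HEY family gene found in vascular smooth muscle and pericytes, was at 1.73, 4.15 and 5.21 FPKM in controls and at 0.902, 0.827, 1.003 and 1.01 FPKM in Foxl2-LSL libraries. The controls were widely spread and the Foxl2-LSL libraries close together, and the groups did not overlap. Heyl fell 3.95-fold, from a control mean of 3.70 FPKM (SD 1.78, n = 3) to 0.936 FPKM (SD 0.0881, n = 4). The log2 difference was -1.20 (SE 0.26; limma adjusted p 0.00867; exact permutation p 0.0571, two-sided). With 0.1 in place of 1 as the pseudocount it was -1.74, and by limma-voom on the recovered fragments -1.83. Of 8 mural cell markers 5 were lower in the same libraries, as given below, and their part in this fall was not tested. Hey1 (chromosome 3, 8663359 to 8667256, minus strand), the related repressor known from endothelium and many other cells, was at 3.98, 4.76 and 3.62 FPKM in controls and 4.14, 4.83, 3.99 and 3.77 FPKM in Foxl2-LSL libraries. Its groups lay on top of each other (log2 fold change 0.02, SE 0.11; limma adjusted p 0.902).

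Ordered by mean level in controls, the 10 genes ran Notch2, Jag1, Notch1, Jag2, Notch3, Dll4, Hey1, Heyl, Notch4 and Dll1. The ranges of neighbours in that order overlapped except between Jag2 and Notch3 and between Notch4 and Dll1. In Foxl2-LSL libraries the order was Jag1, Notch2, Dll4, Notch1, Notch3, Hey1, Jag2, Notch4, Dll1 and Heyl. There Jag1 stood clear above Notch2, and the ranges also separated Notch1 from Notch3, Notch3 from Hey1, and Jag2 from Notch4. The last 3, Notch4, Dll1 and Heyl, lay between 0.721 and 1.41 FPKM. Dll1 overlapped with both of the others, while every Notch4 value was above every Heyl value.

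Within the controls, library 4 was at an extreme for all 10 genes, the highest for Notch3, Notch4, Jag2, Dll1 and Heyl and the lowest for Notch1, Notch2, Jag1, Dll4 and Hey1. Over all tested genes control 4 was at an extreme in 79.1%. For all 5 called genes control 4 was the control farthest from the Foxl2-LSL libraries, as it was for 39.3% of all called genes. Without control 4, Notch4, Jag1, Jag2 and Heyl still passed and Dll4 did not (log2 fold change 0.49; limma adjusted p 0.0569).

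Vessel markers moved in the same comparison. Of 12 endothelial markers 10 were lower and 1 was higher past the threshold, and their summed FPKM was 223.7 to 278.7 in controls and 166.0 to 193.4 in Foxl2-LSL libraries, with none at 0. The VE-cadherin gene Cdh5 fell from 30.1 ± 11.6 to 12.2 ± 0.709 FPKM (SD, n = 3 and n = 4; log2 fold change -1.17) and the claudin gene Cldn5 rose from 16.5 ± 3.65 to 29.8 ± 3.96 FPKM (0.82). Of 8 mural cell markers 5 were lower and 0 higher, with sums of 95.6 to 186.6 and 85.5 to 111.9 FPKM. The pericyte genes Rgs5 (log2 fold change -2.01) and Higd1b (-1.99) fell the most of these. The 3 mural cell markers that did not pass had log2 fold changes above 0, from 0.26 to 0.44. Of 8 smooth muscle markers 3 were higher and 0 lower, and of 8 epithelial markers 1 was higher and 0 lower. In whole tissue, fewer cells of a type and less RNA per cell cannot be told apart.

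The genes were also read relative to these markers, as the log2(FPKM + 1) of the gene minus the mean log2(FPKM + 1) of a marker list in the same library. Of 15 such values compared between the groups, 9 reached 0.0571, the smallest p that the two-sided exact permutation test used here can give. It became 0.0952 after Benjamini-Hochberg adjustment over the 15, and this test could pass none of them. The sizes are given as descriptions, each as the Foxl2-LSL mean minus the control mean of this relative value. Relative to endothelial markers, Notch4 was lower by a difference of -0.51 (controls -1.96 ± 0.06, Foxl2-LSL libraries -2.47 ± 0.12; SD, n = 3 and n = 4). The endothelial list itself differed by -0.41, so its shift was smaller than that of Notch4. Relative to the same markers Jag2 changed by -0.55.

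Dll4 was higher relative to the general endothelial markers. Dll4 minus the marker mean was -1.43 in controls (SD 0.37, n = 3) and -0.42 in Foxl2-LSL libraries (SD 0.16, n = 4), a change of 1.01, and on this scale Dll4 no longer overlapped between the groups. Of the 5 arterial endothelium markers 1 was lower (Gja5, log2 fold change -0.78; limma adjusted p 0.00799), 0 were higher and 4 did not pass. Their median log2 fold change was -0.08, and their summed level was 125.0 to 163.1 FPKM in controls and 132.0 to 154.4 FPKM in Foxl2-LSL libraries. Dll4 relative to the arterial list was not tested. Jag1 was higher relative to endothelial markers by 1.53 and relative to epithelial markers by 0.84, without overlap. Relative to endothelial markers Notch1 changed by 0.34 and Hey1 by 0.43, with overlapping groups. Notch2 changed by 0.36 relative to them without overlap, and by 0.50 relative to stromal markers with overlap. The endothelial list itself differed by -0.41 and the stromal list by -0.55. Of 8 stromal markers 3 were lower and 1 higher past the threshold. Notch1, Notch2 and Hey1 themselves changed by -0.07, -0.05 and 0.02, so their relative changes reflect mainly the shift of the lists. Dll1 changed by -0.01 relative to endothelial and by 0.13 relative to stromal markers, and both signs turned under alternatives.

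Heyl and Notch3, both genes of mural cells, were read against mural markers in a way that depends on how that list is summarised. Relative to the mean of the mural markers Heyl changed by -0.59 between the groups, without overlap, and relative to their median by -1.36. Relative to the mean of the smooth muscle markers its change was -1.75. Notch3 lay below the mean of the mural markers in both groups. It was at -0.89 in controls and -0.13 in Foxl2-LSL libraries, a change of 0.76 without overlap. By the median of those markers in place of the mean the change was -0.01 (exact permutation p 0.800), so no direction is given for it. Relative to smooth muscle markers Notch3 changed by -0.40, with overlapping groups. The mean of the mural list itself differed by -0.61 between the groups, and that of the smooth muscle list by 0.55. Each relative change includes the shift of its list, while Heyl itself changed by -1.20 and Notch3 by 0.15.

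**Figure D3:**
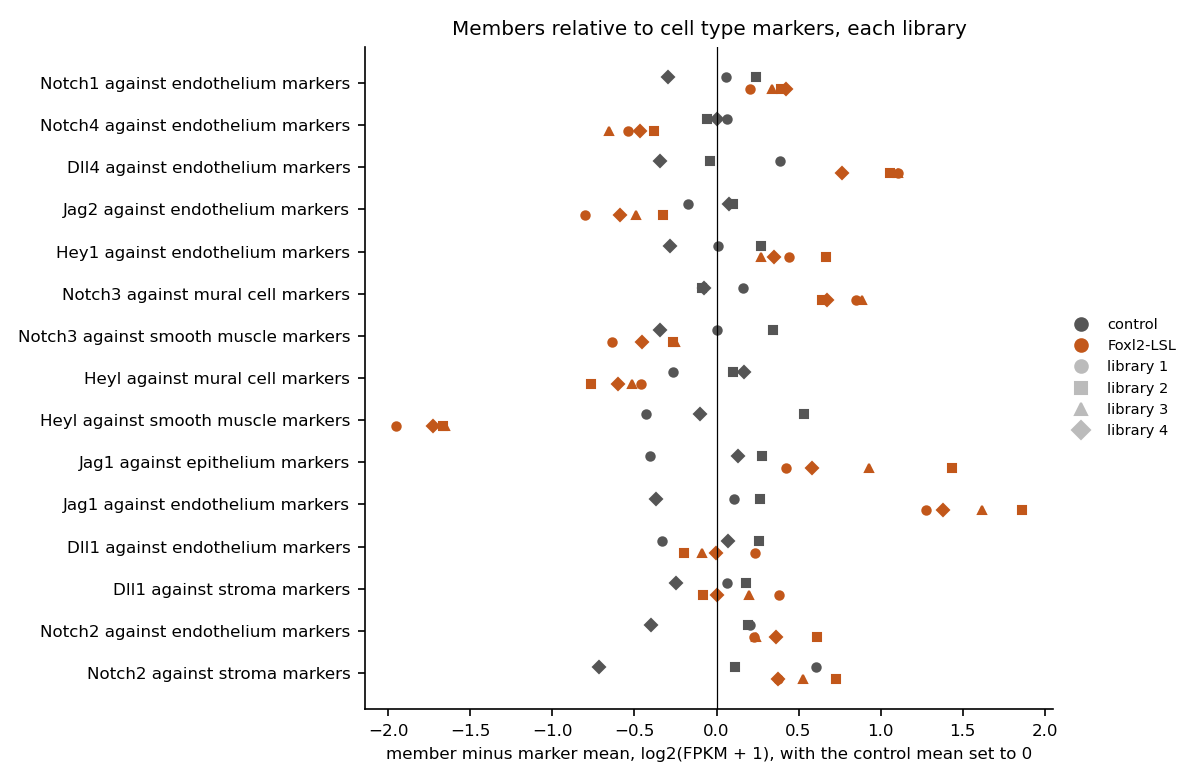
Each gene relative to a marker list, in log2(FPKM + 1) units on the horizontal axis with the control mean set to 0; each point is 1 library, controls in grey above and Foxl2-LSL in orange below, with shapes for library numbers. Dll4 and Jag1 lie to the right of all controls and Notch4, Jag2 and Heyl to the left, while the 2 groups mix for Dll1.

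The rest of the pathway was read from 53 further genes grouped by role, of which 45 passed the filter. Of these 45, 8 were higher and 14 lower past the threshold (limma, Benjamini-Hochberg), that is 48.9% against 40.6% of all tested genes. The count of 22 was 14 without Foxl2-LSL 4. With libraries 1, 2 and 4 of each group it was 16, and 10 when their replicate number was added as a block, while the counts over all tested genes were 3975 and 3243. The share is not read as different from the background. Their median log2 fold change was -0.15 against -0.05. The other Delta-like and related ligands Dll3, Dlk1, Dlk2 and Dner were below the filter, with a summed level of 0.162 to 0.328 FPKM, below the level of any of the 4 ligands above in any library.

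Of 10 genes of receptor cleavage, 1 was higher and 2 were lower. Psenen, a subunit of gamma-secretase, rose from 40.0 ± 2.36 to 55.1 ± 5.33 FPKM (SD, n = 3 and n = 4; log2 fold change 0.45). Adam17, a membrane protease that can shed receptor ectodomains, fell from 18.8 ± 1.48 to 13.5 ± 0.256 FPKM (-0.44), and Furin, the convertase that cuts the receptor precursor, from 21.4 ± 1.40 to 17.4 ± 0.715 FPKM (-0.28). Of 5 genes that add sugars to the receptor, 0 were higher and 4 lower: the fringe genes Mfng (-0.44) and Rfng (-0.34), the O-fucosyltransferase Pofut1 (-0.26) and the O-glucosyltransferase Poglut1 (-0.25). Poglut1 was named after its values were seen. The calls of Pofut1 and Poglut1 had limma adjusted p of 0.0455 and 0.0441 and passed in 5 and 6 of 19 alternatives. Lfng, the remaining fringe gene, was at 6.26 ± 0.711 and 5.48 ± 0.329 FPKM (-0.16; limma adjusted p 0.183).

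Ligand endocytosis needs ubiquitin ligases, and of the 4 measured 1 was higher and 1 lower. Mib2 rose from 17.9 ± 0.317 to 25.5 ± 2.73 FPKM (SD, n = 3 and n = 4; log2 fold change 0.48) and Neurl1a fell from 1.75 ± 0.324 to 1.15 ± 0.105 FPKM (-0.35), a call that held in 8 of 18 alternatives. Of 8 genes of receptor turnover and inhibition, 3 were higher and 2 lower. The Deltex genes Dtx4 and Dtx3 fell by 0.74 and 0.69 on the log2 scale, Dtx3 from 121.7 ± 3.69 to 75.3 ± 5.21 FPKM. Fbxw7, the ubiquitin ligase subunit that directs breakdown of the active receptor, rose by 0.47.

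In the nuclear complex Rbpj, whose product canonical signalling depends on, did not pass the test. It was at 9.42, 10.5 and 10.2 FPKM in controls and at 9.79, 9.97, 10.03 and 10.1 FPKM in Foxl2-LSL libraries (log2 fold change -0.01, SE 0.06; limma adjusted p 0.951). Of the 14 genes of this list 2 were higher and 4 lower. The acetyltransferase Kat2a fell by 0.61 and the deacetylase Hdac2 by 0.58 on the log2 scale. Cell cycle genes moved alongside, with 6 of 6 proliferation markers lower and their summed FPKM at 70.0 to 166.2 in controls and 8.50 to 27.7 in Foxl2-LSL libraries, and their part in these falls was not tested. The coactivator Maml2 rose by 0.44, a call that held in 10 of 18 alternatives.

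**Figure D4:**
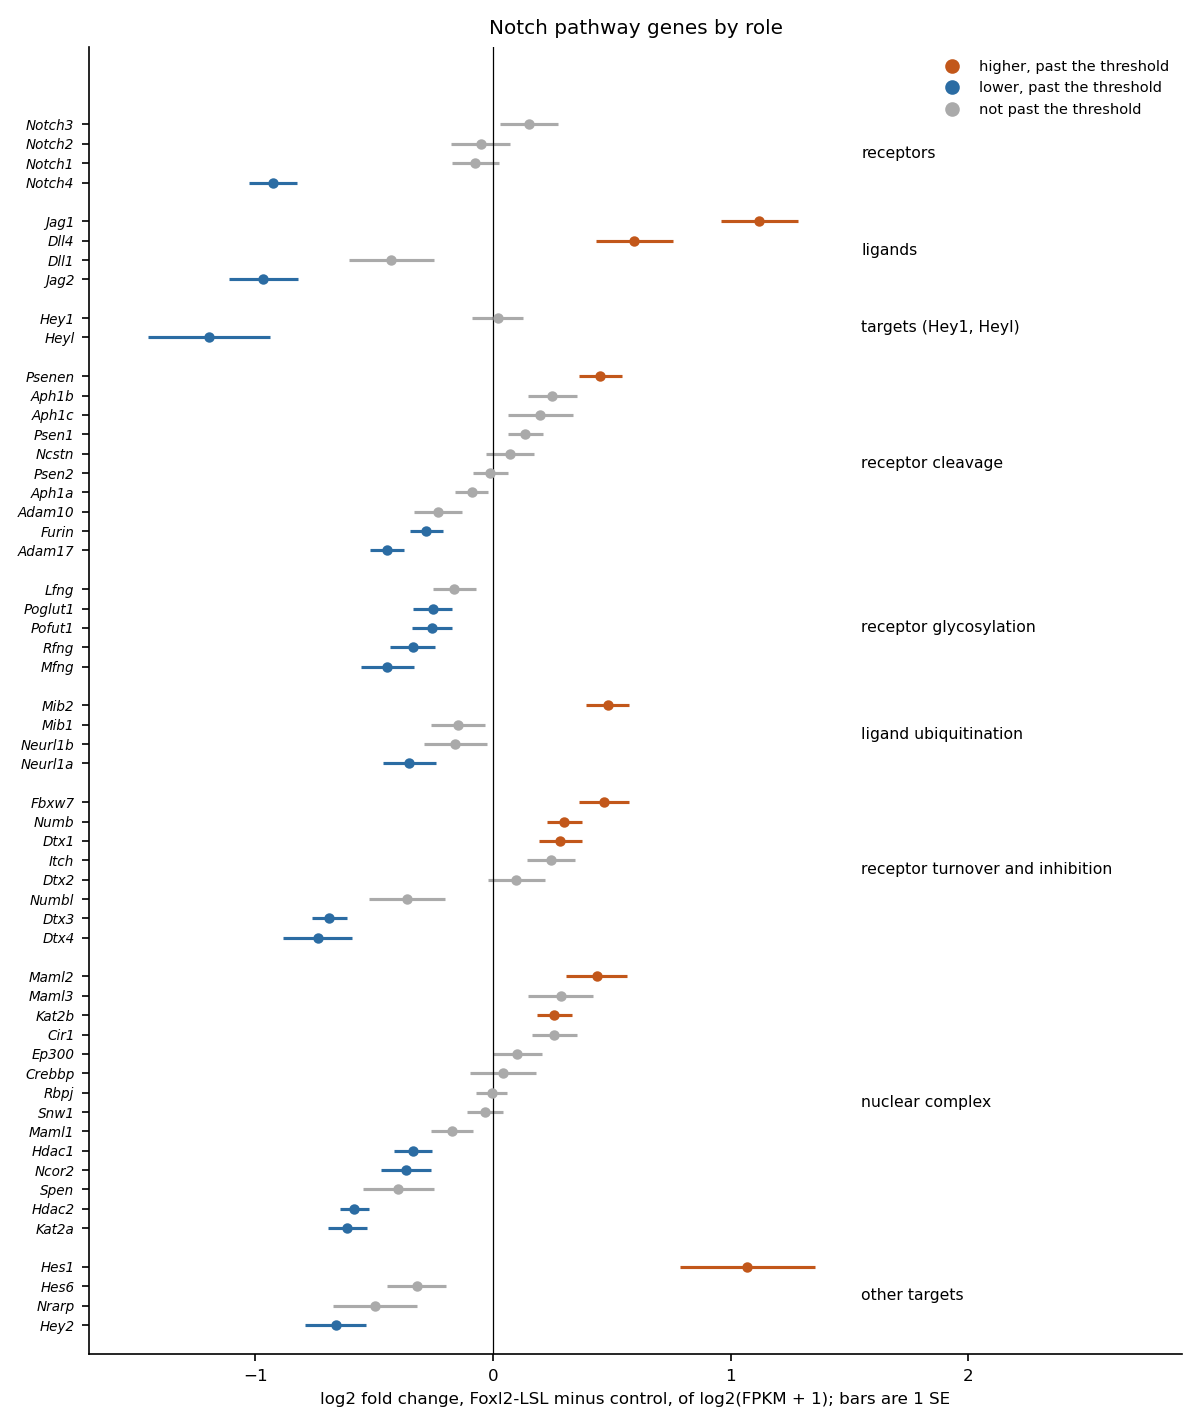
Log2 fold change (Foxl2-LSL minus control, on log2(FPKM + 1), horizontal axis) of the 10 genes and of the 45 other tested pathway genes, grouped by role; bars are 1 SE, orange and blue mark genes higher and lower past the threshold and grey the rest. Jag1 and Hes1 lie farthest to the right and Heyl farthest to the left.

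Of the other targets Hes1 was higher, Hey2 lower, and Nrarp and Hes6 did not pass, while Hes2, Hes3, Hes5 and Hes7 were below the filter. Hes1, a repressor that many pathways besides Notch switch on, was at 33.2, 25.1 and 12.3 FPKM in controls and at 52.5, 44.5, 45.1 and 45.9 FPKM in Foxl2-LSL libraries. Its controls were widely spread, with control 4 the lowest, and all lay below the Foxl2-LSL libraries (log2 fold change 1.07, SE 0.28; limma adjusted p 0.0201). Hey2 (chromosome 10, 30832359 to 30842801, minus strand), the HEY gene known from arteries and the heart, whose start is shown above with its RBPJ letters, was at 1.30, 1.62 and 1.76 FPKM in controls and at 0.832, 0.694, 0.457 and 0.496 FPKM in Foxl2-LSL libraries. All Foxl2-LSL libraries were below all controls (log2 fold change -0.66, SE 0.13; limma adjusted p 0.00588). Nrarp, a feedback inhibitor and direct target, was at 3.66 ± 0.743 and 2.32 ± 0.604 FPKM (SD, n = 3 and n = 4; -0.50; adjusted p 0.0576 by limma). In the annotation 2051 of the exon bases of Nrarp, 79.4% of them, are shared with Gm38287 on the other strand. The RNA of the HES and HEY genes rose (Hes1), fell (Heyl, Hey2) or did not pass the test (Hey1) in the same libraries.

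For each called gene the tested gene with the most similar profile was found, as the smallest root mean square difference of centred log2(FPKM + 1) over the 7 libraries. It was Trim35 for Notch4 (0.06), Rtl5 for Jag1 (0.10), Htra1 for Jag2 (0.07), Mpped2 for Dll4 (0.08) and Cadm3 for Heyl (0.07). Htra1 encodes a secreted serine protease and Cadm3 a cell adhesion molecule. Cadm3 followed Heyl through the uneven controls, at 1.84, 4.15 and 4.96 FPKM, and down to 0.700 to 0.833 FPKM in the Foxl2-LSL libraries. All of these genes were picked for their closeness among the tested genes, so the likeness is not a separate result.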

How the data were processed

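The authors deposited a table of FPKM values for 24964 gene symbols, 1 column per library, with the gene length in bases beside them, per the file headers. Total RNA was extracted with TRIzol, per the labels' protocols. The submitters' processing notes name STAR 2.5.2b, featureCounts 1.5.0-p1 and DESeq2 1.12.4 and the build mm10, with no role given; annotation, strand and filters are not given in the sources used here. FPKM times length fell on whole multiples of 1 step in each library (100% of low values within 0.1), which gave the fragments behind each value.

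Tested were 13334 genes whose FPKM averaged 1 or more (11630 were below). They were compared as log2(FPKM + 1) with limma 3.58.1 in R 4.3.3 (lmFit, eBayes with an intensity trend, Benjamini-Hochberg adjustment, threshold 0.05), without a block for replicate numbers. A fold change on this scale understates that of low genes. Exact permutation tests used log2(FPKM + 1) and all 35 ways to assign the labels (scipy 1.17.1). The limma step was tested on simulated data for 13334 genes: with 200 genes shifted by a log2 value of 1.5, it called 191 of them with the correct sign, and 15 unshifted genes.

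The 10 genes and the lists were chosen with earlier results of these data known. Of the other pathway genes, Rbpj, Hes1, Nrarp, Lfng and Hey2 were named whatever their result, and up to 3 called genes with the largest change in each role. Of each marker list up to 2 were eligible; Ovgp1 and Adipoq, shown as a check of the libraries, were chosen after their values were seen. Sequences and start sites are RefSeq's on GRCm38.p6, gene coordinates GENCODE M21's on GRCm38, matched by symbol.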

Additional observations from a re-analysis of the deposited data

Results flagged for a closer look

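Among the 39 sets of 4 Foxl2-LSL values checked, Dll4 relative to endothelial markers stood out: library 4 lay at -0.66, apart from the other 3 libraries at -0.37 to -0.32, by Dixon's 95% limit. Chance flags about 1 in 20 such sets.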

How the results depend on the processing

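Results were recomputed under 19 alternatives chosen with the tests. Jag1 and Jag2 kept their direction and passed in 19 of 19, and Notch4 and Heyl in the 18 that tested them. Dll4 lost its call in 5 of 19 (1 of these repeats the fit without Foxl2-LSL 3), as given above. The count of all genes past the threshold was 5409, 3853 to 5328 when 1 library was left out and 3243 with a replicate block. The block fit uses only libraries 1, 2 and 4 of each group, and the same 6 libraries without the block gave 3975. Of the 10 Notch genes 4 to 6 passed when a library was left out, 5 with the replicate block (4 in those 6 libraries without it) and 3 with a mean FPKM of at least 5, which leaves out Notch4, Dll1, Hey1 and Heyl by construction. Of the other pathway genes 14 to 21 passed when a library was left out (14 without Foxl2-LSL 4, 15 without control 2) and 10 with the replicate block, against 16 in the same 6 libraries without it and 22 in all 7. Same-numbered libraries deviated from their group means with correlations of 0.228, -0.0306 and -0.112, and 2 of 6 libraries correlated best with their own number, so the numbers were not taken to pair libraries.

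Values near 0 changed sign. Notch2 was at 0.0034 with quantile normalization and between -0.18 and 0.029 when a library was left out, above 0 without control 1. Hey1 was at -0.15 with array weights and between -0.051 and 0.11 when a library was left out, below 0 without Foxl2-LSL 2 or control 4. The change relative to mural markers was -0.013 for Notch3 and -1.36 for Heyl by their median, against 0.76 and -0.59 by their mean. The change of Dll1 relative to endothelial markers was between -0.18 and 0.12 when a library was left out. It was above 0 without control 2, control 4, Foxl2-LSL 2 or Foxl2-LSL 3. Relative to stromal markers the change was -0.10 with pseudocount 0.1 and -0.047 by their median. The share of higher genes among all called genes was 41.1%, and 50.4% with median centring and 49.2% with quantile normalization; these moved the median log2 fold change by 0.05. Depth limited none of the 10 genes strongly, since the rarest, Dll1, had 118 fragments or more.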
